A study of Rattus norvegicus with 9 samples.

Results

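The Sox chondrogenic transcription factors taken up here are Sox4, Sox5, Sox6, Sox9 and Sox11, 5 genes chosen by symbol. A row was taken for each symbol that the deposited expression table lists, which gave 4 genes of the 34267 in the table. Sox4 has no row under that name and was not analysed here. Each of the other symbols had exactly 1 row.

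Sox proteins bind DNA through an HMG box, a domain that bends the double helix, and they are sorted into groups by the sequence of that box. In cartilage, Sox9 of the SoxE group switches on collagen and proteoglycan genes, and Sox5 and Sox6 of the SoxD group, which have no activation domain of their own, bind beside it and strengthen its action. Sox4, Sox11 and Sox12 form the SoxC group, which is known from undifferentiated progenitor cells of many tissues, the early skeleton among them.

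The measurements were made on polyadenylated RNA from primary cultures of wild-type rat cartilage progenitor cells, isolated from condylar cartilage. Each of 3 groups had 3 libraries. P3 cells were untreated and at passage 3, and they served as the control group. P9 cells were untreated and had been cultured to passage 9, the study's model of replicative senescence. FFSS cells were at passage 3 and had been exposed to shear stress from flowing fluid, the study's model of degeneration under mechanical load. The labels give no strain, age, strength or duration of flow, and they do not say whether the libraries of a group stem from different rats or cultures. The p-values below therefore describe the spread between these libraries, which may be technical. In bulk RNA, fewer cells that express a gene and less RNA per cell cannot be told apart.

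Levels are given as FPKM, a fragment count scaled by gene length and library size. Library totals ran from 13264930 to 15323790 fragments, so that a single fragment on a gene of 1 kb was worth 0.0619 to 0.0733 FPKM. A count of 0 fragments still allowed 3 fragments, or 0.186 to 0.220 FPKM at that length, by counting error only. Testing used the 13059 genes that reached 1 FPKM in 3 or more libraries. Fold changes are differences of log2(FPKM + 1), which understate the change of a gene near or below 1 FPKM. FFSS replicate 1 stood apart: across tested genes it correlated at 0.915 and 0.947 with the other FFSS libraries and at 0.936 to 0.945 with the P3 libraries, and the differences of the factors and the list counts that involve FFSS are given with and without it. Mitochondrial fragments made up 2.12 to 2.56% of the libraries of P3 and P9 and 2.96 to 3.75% of the FFSS libraries. The summed level of 5 measured leukocyte markers was 42.2 to 105 FPKM in FFSS, against 9.60 to 11.1 in P3 and 5.14 to 5.66 in P9. Most of that sum was Cd14, which was called higher in FFSS than in P3, while Ptprc, the pan-leukocyte phosphatase, stayed at or below 0.0405 FPKM in every library. The macrophage genes Csf1r and Lyz2 were at 3.17 and 5.36 FPKM in FFSS replicate 2 and at 2.08 and 2.94 in FFSS replicate 3, and at or below 0.305 in all other libraries. The part of these differences in the results below was not tested.

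All 4 measured factors passed the expression filter, and their order of abundance was different in each group. Sox6 led the 4 in P3 at 5.53 ± 0.538 FPKM (SD, n = 3, as for all group values below), followed by Sox9 at 4.52 ± 0.403, Sox11 at 2.41 ± 0.902 and Sox5 at 0.504 ± 0.278. In P9 the order was Sox11 at 10.3 ± 1.66, Sox9 at 6.46 ± 1.49, Sox6 at 1.28 ± 0.382 and Sox5 at 0.138 ± 0.0642 FPKM. In FFSS it was Sox9 at 12.7 ± 2.74, Sox6 at 8.86 ± 1.11, Sox5 at 2.27 ± 0.347 and Sox11 at 0.345 ± 0.240 FPKM. Within each group the libraries of neighbours in these orders did not overlap. Sox11 moved from the third place in P3 to the first in P9 and the last in FFSS. These levels rest on the deposited gene models, of 3420 bases for Sox9, 3096 for Sox6, 3465 for Sox5 and 2010 for Sox11.

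**Figure D1:**
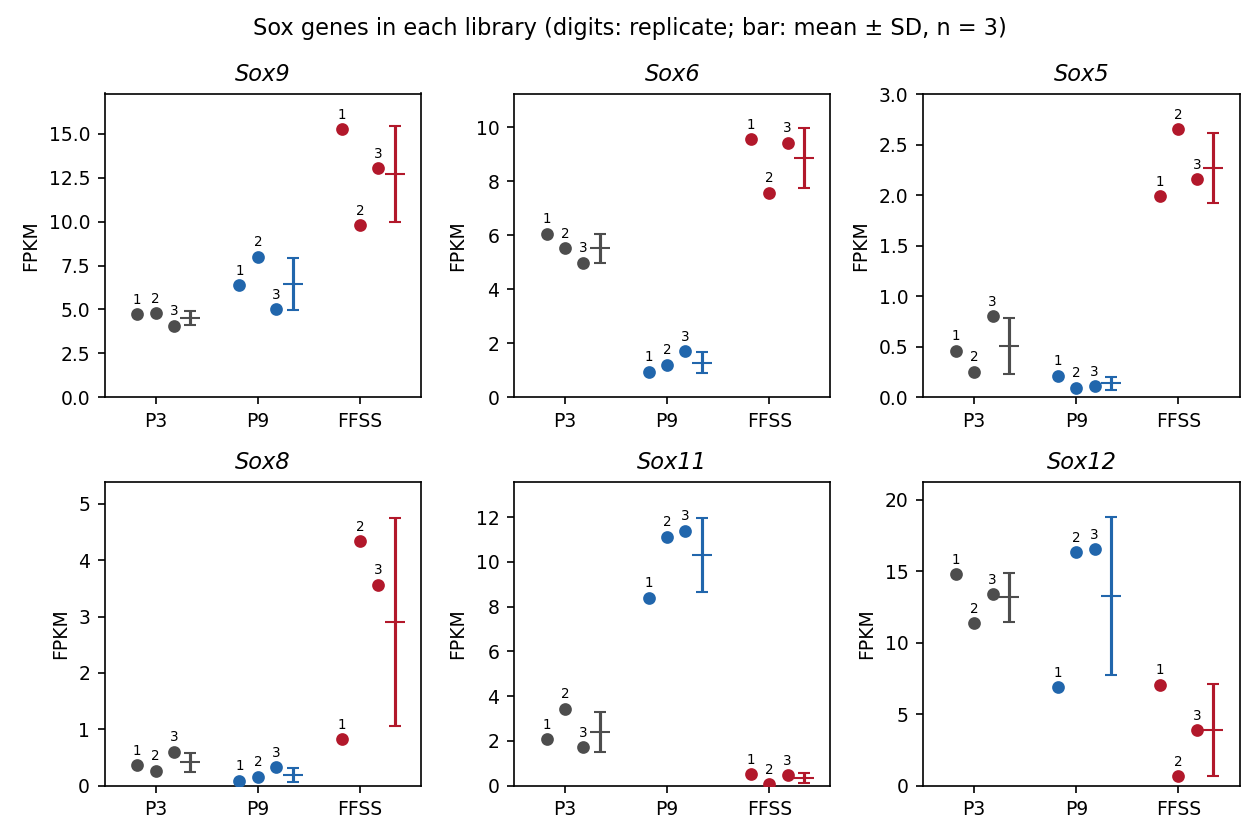
FPKM of 6 Sox genes in each of the 9 libraries (points, with the replicate number) with the group mean and SD (bars, n = 3). Sox11 is highest in P9 and lowest in FFSS, whereas Sox6 and Sox5 are lowest in P9 and highest in FFSS.

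Sox9, the factor that cartilage formation depends on, lies on rat chromosome 10 (Rnor_6.0, 101288489 to 101293379, plus strand). The P3 libraries held Sox9 at 4.72, 4.79 and 4.06 FPKM, those of P9 at 6.37, 8.0 and 5.01, and those of FFSS at 15.3, 9.81 and 13.0, from 205 to 781 fragments per library. The groups did not overlap, with every FFSS library above every P9 library and every P9 library above every P3 library. Under shear stress Sox9 rose 2.81-fold in mean FPKM, a log2 fold change of 1.29 (SE 0.192, adjusted p = 0.00338, limma). Without FFSS replicate 1 the change was 1.16 (adjusted p = 0.00232). At passage 9 the log2 fold change was 0.42 (SE 0.192, adjusted p = 0.239), with a 95% interval from -0.02 to 0.85, and the test did not call it. Sox9 kept its call in FFSS under all 16 alternatives run.

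Sox8, the paralog of Sox9 that is also active in cartilage, did not pass the expression filter and was not tested. It was at 0.367, 0.268 and 0.606 FPKM in P3, at 0.0904, 0.162 and 0.324 in P9, and at 0.825, 4.34 and 3.57 in FFSS. FFSS replicate 1 had 40 Sox8 fragments, against 205 and 172 in the other FFSS libraries and 4 to 29 in the libraries of P3 and P9. Sox10, the SoxE member of glia and melanocytes, had 3 fragments over all libraries.

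Sox6, the more abundant of the SoxD partners, lies on chromosome 1 (Rnor_6.0, 185673177 to 186182829, plus strand). Its level was 6.07, 5.53 and 4.99 FPKM in P3, 0.947, 1.21 and 1.70 in P9, and 9.57, 7.58 and 9.43 in FFSS. All 3 P9 libraries were the lowest and the 3 FFSS libraries the highest, without overlap. At passage 9 Sox6 fell by 1.52 on the log2 scale (SE 0.161, adjusted p = 0.000731), with mean FPKM 4.30-fold lower than in P3, and 2.34% of the tested genes had a change of larger size. Under shear stress its mean FPKM was 1.6-fold that of P3 and its log2 fold change was 0.59 (SE 0.161, adjusted p = 0.0315), or 0.54 without FFSS replicate 1 (adjusted p = 0.0393). That second call was less stable, and it held under 8 of 16 alternatives. The adjusted p was 0.0609 with a pseudocount of 0.1, 0.0621 with no expression filter, and up to 0.110 when a single library was left out (P3 replicate 1, 2 or 3, P9 replicate 2 or FFSS replicate 3).

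Sox5, the second SoxD partner, is a close relative of Sox6 and lies on chromosome 4 (Rnor_6.0, 178066165 to 178441547, minus strand). Its level was 0.458, 0.251 and 0.802 FPKM in P3, 0.212, 0.0946 and 0.107 in P9, and 1.99, 2.65 and 2.16 in FFSS. Behind these values were 12 to 41 fragments per P3 library, 5 to 10 per P9 library and 103 to 134 per FFSS library. The groups did not overlap. Sox5 passed the expression filter through its FFSS libraries alone, so a high FFSS level was a condition of its being tested, and its differences from FFSS are descriptions with no test. Its mean FPKM in FFSS was 4.50-fold that of P3, a log2 fold change of 1.13 (SE 0.191), or 1.19 without FFSS replicate 1. At passage 9 it was -0.39 (SE 0.191, adjusted p = 0.271), which the test did not call. The size of the FFSS change depended on the scale, at 2.07 with a pseudocount of 0.1 and 2.27 from the recovered fragments with voom.

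Sox13, the SoxD member that is a T-cell factor in other settings, was at 0.919 ± 0.185 FPKM in P3, 1.06 ± 0.323 in P9 and 0.434 ± 0.125 in FFSS. It reached 1 FPKM only in P3 replicate 2 and P9 replicates 1 and 3. A high level outside FFSS was thus a condition of its being tested, and its differences from FFSS are descriptions with no test. Its log2 fold change was 0.10 at passage 9 (adjusted p = 0.816), which the test did not call, and -0.42 under shear stress.

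The promoter of Sox6 is shown because Sox6 and Sox11 changed most and in opposite directions at passage 9. The supplied RefSeq promoter table, built on rat assembly GRCr8, held an entry for Sox6 and for Sox11. The 250 bases before the Sox6 start (GRCr8, chr1:179665372-179665621, minus strand) were searched on both strands for 5 motifs. The deposited Rnor_6.0 coordinates place Sox6 on the plus strand, and this difference between the builds was not looked into. The core bound by Sox proteins was taken as ACAAT. The CCAAT box was searched by the letters of its name. The E-box of many helix-loop-helix factors was taken as CACGTG. The cAMP response element was taken as TGACGTCA. The TATA box was taken as TATAAA. None of these overlap in the windows shown. Matches are in capitals and may read as their reverse complement.
Sox6: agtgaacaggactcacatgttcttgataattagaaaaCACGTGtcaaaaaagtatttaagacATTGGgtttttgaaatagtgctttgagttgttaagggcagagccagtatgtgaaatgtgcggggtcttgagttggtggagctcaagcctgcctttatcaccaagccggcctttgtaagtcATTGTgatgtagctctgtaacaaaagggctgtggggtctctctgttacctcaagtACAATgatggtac
This window held 2 SOX cores, 68 and 13 bases before the start, a CCAAT box 188 bases before it and an E-box 213 bases before it, and its GC content was 42.8%. Of 33469 promoters of the same length, 30.02% held a SOX core, 34.02% a CCAAT box and 5.59% an E-box, and the median GC content was 51.2%. The deposited values sum over all transcripts of a gene and do not say which start was used.

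Sox11, a SoxC factor of progenitor cells, lies on chromosome 6 (Rnor_6.0, 46629974 to 46631983, minus strand). Its level was 2.07, 3.43 and 1.72 FPKM in P3, 8.39, 11.1 and 11.4 in P9, and 0.499, 0.0683 and 0.469 in FFSS. Behind these values, fragments numbered 51 to 95 per P3 library, 230 to 370 per P9 library, and 15, 2 and 14 in the FFSS libraries. Each P9 library was above each P3 library, and each P3 library above each FFSS library. At passage 9 Sox11 rose 4.28-fold in mean FPKM, a log2 fold change of 1.75 (SE 0.228, adjusted p = 0.002), and 1.66% of the tested genes had a change of larger size. Under shear stress it fell by 1.33 on the log2 scale (SE 0.228, adjusted p = 0.00616), with mean FPKM 6.97-fold lower than in P3. Without FFSS replicate 1 it fell by 1.41 (adjusted p = 0.00319). Both calls held under all 16 alternatives, although the size of the FFSS change grew to -2.64 with a pseudocount of 0.1 and -3.05 with voom.

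The Sox11 window in the same table (GRCr8, chr6:49738795-49739044, minus strand) is shown for comparison with that of Sox6.
Sox11: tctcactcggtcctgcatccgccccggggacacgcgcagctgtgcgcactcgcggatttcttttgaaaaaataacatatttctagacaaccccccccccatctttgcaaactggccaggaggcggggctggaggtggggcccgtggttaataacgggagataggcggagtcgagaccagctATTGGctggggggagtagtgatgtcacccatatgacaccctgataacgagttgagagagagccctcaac
It held a CCAAT box 69 bases before the start and no other searched motif. Its GC content was 56.8%, and it had 14 CpG dinucleotides, against 3 in the Sox6 window and a median of 5 over all promoters.

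Sox12, the SoxC paralog with the highest FPKM in P3 of any Sox gene with a row, varied widely between replicates. Its level was 14.8, 11.4 and 13.4 FPKM in P3, 6.90, 16.3 and 16.6 in P9, and 7.08, 0.673 and 3.89 in FFSS. P9 overlapped both other groups, and every FFSS library was below every P3 library. Under shear stress Sox12 fell by 1.80 on the log2 scale (SE 0.529, adjusted p = 0.0405). That call held under 5 of 16 alternatives. It was -2.30 without FFSS replicate 1 (adjusted p = 0.00644), -1.17 without FFSS replicate 2 (adjusted p = 0.0648), and adjusted p reached 0.118 without P3 replicate 1. At passage 9 its log2 fold change was -0.08 (SE 0.529, adjusted p = 0.957), and it changed sign without P3 replicate 1 or P9 replicate 1.

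Set side by side, the comparisons with P3 gave Sox6 -1.52 at passage 9 and 0.59 under shear stress, Sox11 1.75 and -1.33, Sox9 0.42 and 1.29, and Sox5 -0.39 and 1.13. Both comparisons share the P3 libraries. At passage 9 the calls were Sox6 and Sox11, where 9.83% of all tested genes were called in either direction, 5.39% higher and 4.44% lower. Under shear stress Sox9 and Sox6 were called higher and Sox11 lower, and 21.8% of the tested genes were called, 11.4% higher and 10.4% lower (39.3% in either direction without FFSS replicate 1). No overlap between P9 and P3 libraries was seen for the 4 factors, which was also true of 40.1% of the tested genes. For Sox9, Sox6 and Sox11 the same held between FFSS and P3, where 42.4% of the tested genes did not overlap.

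**Figure D2:**
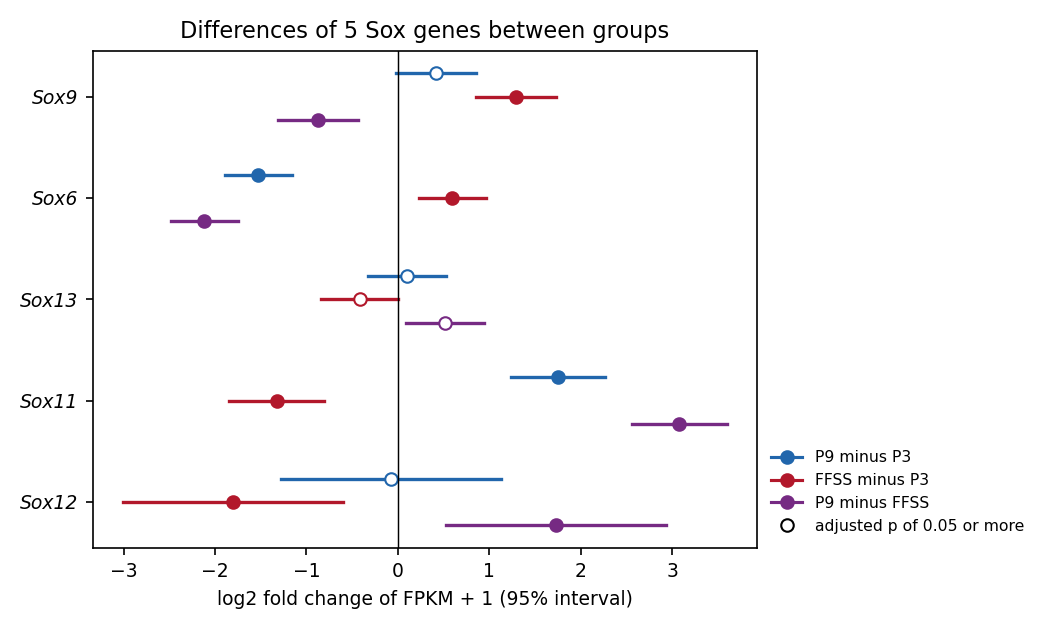
Differences of mean log2(FPKM + 1) for 5 Sox genes, with 95% intervals; filled points have an adjusted p under 0.05 in limma. Sox5, which passed the expression filter through FFSS alone, is not drawn. Sox13 passed it through P3 and P9 libraries alone, so its differences from FFSS are descriptions with no test. For Sox6 and Sox11 the P9 and FFSS differences from P3 lie on opposite sides of 0.

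P9 was also set directly against FFSS, which asks whether the models differ; here P3 enters only the estimate of the spread. Sox6 was lower in P9 than in FFSS by -2.12 (SE 0.161, adjusted p = 5.0e-05) and Sox9 by -0.88 (SE 0.192, adjusted p = 0.00918). The difference of Sox5, given without a test for the reason above, was -1.52 (SE 0.191). Sox11 was higher in P9 by 3.08 (SE 0.228, adjusted p = 4.3e-05), a 29.8-fold difference in mean FPKM, and 0.881% of the tested genes differed by more. In this comparison 31.4% of the tested genes were called, 16.1% higher in P9 and 15.3% lower, and 42.2% did not overlap between the groups. Without FFSS replicate 1 the differences were -2.06 for Sox6, -0.74 for Sox9 and 3.16 for Sox11, each still called, and -1.58 for Sox5, while 45.8% of the tested genes were then called. Sox12 was higher in P9 by 1.73 (adjusted p = 0.036), a call kept under 6 of 16 alternatives, with P9 replicate 1 below FFSS replicate 1. Sox13, which passed the filter through P3 and P9 libraries alone, differed by 0.52, given without a test.

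The FPKM of the Sox genes with a row summed to 28.04 ± 1.58 in P3, 33.1 ± 7.49 in P9 and 31.8 ± 5.12 in FFSS. Sox4, Sox1 and Sox3 have no row, so the shares below leave them out. The make-up of the sum differed between groups. The cartilage trio of Sox9, Sox6 and Sox5 supplied 16.1, 19.7 and 1.81% of the sum in P3, 20.2, 3.89 and 0.469% in P9, and 39.7, 27.9 and 7.38% in FFSS. Sox11 supplied 8.62 ± 3.38% in P3, 31.5 ± 2.54% in P9 and 1.02 ± 0.654% in FFSS. Sox12 supplied 47.0 ± 4.76%, 38.7 ± 9.17% and 11.3 ± 8.56% in the same order. A share can move because another member of the sum moves, and these shares were not tested.

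**Figure D3:**
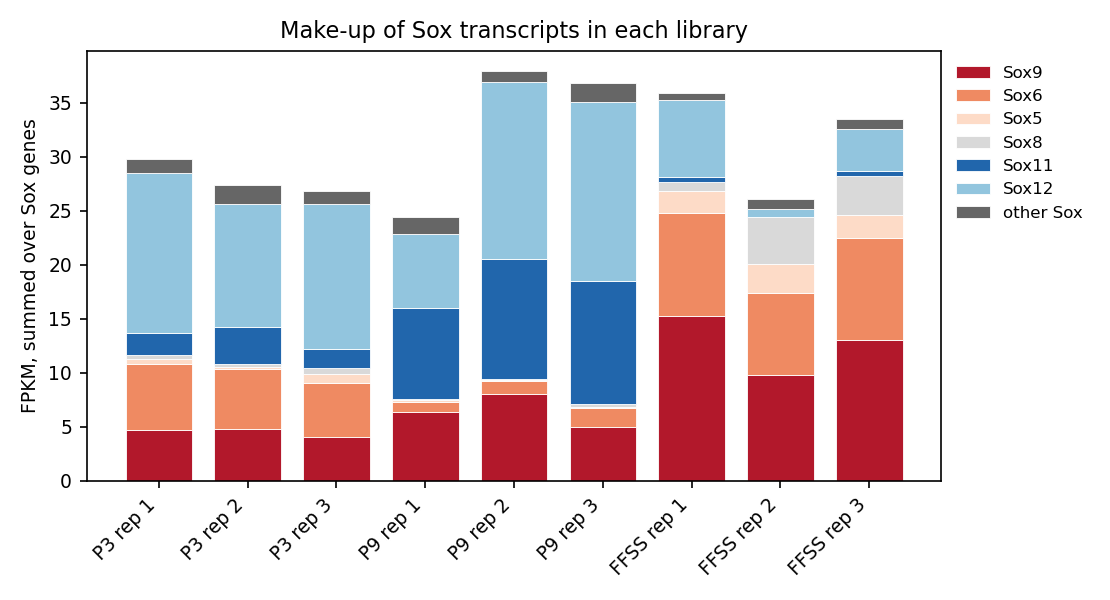
Stacked FPKM of the Sox genes with a row, which leave out Sox4, in each of the 9 libraries. Bar height is the summed FPKM. Sox11 and Sox12 make up most of the P9 bars, and Sox9 and Sox6 most of the FFSS bars.

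The balance between Sox9 and its partners was compared within libraries. FPKM of Sox9 was 0.778 to 0.867 times that of Sox6 in P3, 2.95 to 6.72 times in P9 and 1.29 to 1.6 times in FFSS. On the log2(FPKM + 1) scale the Sox9 to Sox6 ratio was -0.24 ± 0.0665, 1.70 ± 0.475 and 0.46 ± 0.147, and no libraries of different groups overlapped. Sox6 was the more abundant of the pair in P3, and Sox9 in P9 and FFSS. FPKM of Sox9 was 5.07 to 19.1 times that of Sox5 in P3, 30.1 to 84.5 times in P9 and 3.70 to 7.68 times in FFSS. On this scale P9 overlapped neither other group, although its Sox5 values rest on 5 to 10 fragments per library. On the log2(FPKM + 1) scale, which damps low values, the Sox9 to Sox5 ratio was 1.89 ± 0.367 in P3, 2.69 ± 0.309 in P9 and 2.05 ± 0.448 in FFSS. There FFSS overlapped both other groups. The tests that follow used the log2(FPKM + 1) ratios. With 3 libraries against 3, the two-sided exact permutation test cannot give a p below 0.1. It gave that value for each of the 3 Sox9 to Sox6 comparisons and for Sox9 to Sox5 between P9 and P3, and 0.2 between P9 and FFSS and 0.6 between FFSS and P3. Adjusted over these 6 comparisons the exact permutation p-values were 0.15, 0.24 and 0.6, so none passed the threshold.

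**Figure D4:**
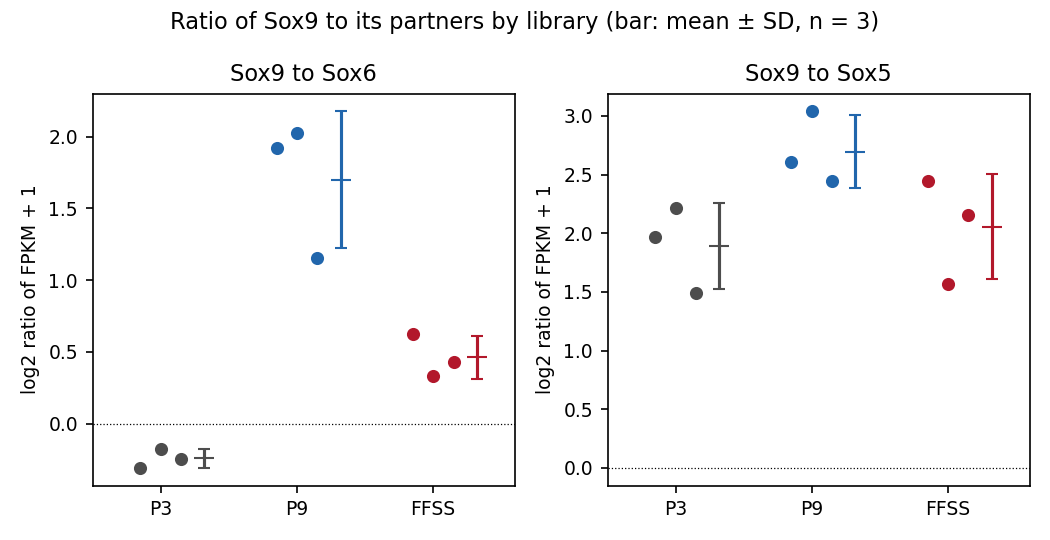
Log2 ratio of FPKM + 1 between Sox9 and Sox6 (left) and Sox9 and Sox5 (right) in each library, with group mean and SD (n = 3); the dotted line marks equal levels. The Sox9 to Sox6 ratio is below 0 in the 3 P3 libraries and highest in the P9 libraries.

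Of 20 Sox genes looked up, 17 had a row, and Sox1 and Sox3 were, like Sox4, without one. Besides the 6 tested genes, 7 had fragments but did not pass the filter and 4 were listed at 0 in every library (Sry, Sox14, Sox17 and Sox21). Sox18, an endothelial factor, was at 0.467 ± 0.149 FPKM in P3, 0.322 ± 0.0819 in P9 and 0.028 ± 0.0485 in FFSS, where 2 fragments were counted in all. Sox15 had 2, 4 and 5 fragments in the FFSS libraries and 0 elsewhere. Sox2, Sox7 and Sox30 had at most 5 fragments in any library.

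By a fixed rule, the genes with the profile most like that of each factor over the 9 libraries were sought among genes of at least 5 FPKM on average. The libraries fall into 3 groups, so these Pearson r values mostly compare group levels, and they are descriptions with no test. Sox6 was most like Klf4, a zinc-finger factor (r = 0.989), Golm1 (0.988) and Slc1a3, a glutamate transporter (0.988). Klf4 stood at 80.3 ± 8.04 FPKM in P3, 15.1 ± 4.85 in P9 and 136 ± 3.76 in FFSS. Sox11 was most like Prag1 (0.988), Osr1, a zinc-finger factor of mesenchyme (0.987), and Lrrfip1 (0.987). Osr1 was at 5.18 ± 2.53 FPKM in P3, 83.02 ± 15.2 in P9 and 0.696 ± 0.440 in FFSS. Sox5 was most like Cd9 (0.989), Scpep1 (0.988) and Glt8d2 (0.987), and Sox9 most like Arl15 (0.961), Sys1 (0.960) and Shisa5 (0.957). Arl15, a small GTPase, was at 6.20 ± 1.73, 9.32 ± 1.96 and 25.1 ± 4.72 FPKM in P3, P9 and FFSS. Among the factors themselves r was 0.811 between Sox5 and Sox6, 0.726 between Sox5 and Sox9 and 0.431 between Sox6 and Sox9. Sox11 had r of -0.936 with Sox5, -0.936 with Sox6 and -0.523 with Sox9.

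No other gene of the table overlapped the 4 factors on the chromosome. The nearest tested genes were chosen after values had been seen. Those beside Sox11 lay 1001 and 1268 kb away, and the nearer one, Rnf144a, had log2 fold changes of -0.78 at passage 9 (adjusted p = 0.0246) and 0.57 under shear stress (adjusted p = 0.0495). Both were opposite in sign to those of Sox11. The farther one, Rps7, was called in neither comparison (adjusted p = 0.727 at passage 9 and 0.630 under shear stress). The nearest tested genes on each side of Sox5 and of Sox6 were also called in neither comparison. The nearest tested gene to Sox9 was an unnamed locus at 130 kb, with log2 fold changes of 1.22 at passage 9 (adjusted p = 0.017) and 0.56 under shear stress (adjusted p = 0.145). Slc39a11, 461 kb from Sox9 on the other side, was called in neither comparison (adjusted p = 0.95 at passage 9 and 0.895 under shear stress).

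The cartilage genes that Sox9, Sox5 and Sox6 are known to activate were followed as a list of 27, of which 15 passed the filter. Col2a1, the main cartilage collagen and the best-known Sox9 target, did not pass it. Col2a1 was at 1.06, 0.703 and 0.717 FPKM in P3, 0, 0.0289 and 0.191 in P9, and 0.118, 0.378 and 0.0297 in FFSS, so every P3 library was above every other library. Col9a1, Matn1 and Cnmd, which mark mature chondrocytes, were at or below 0.407 FPKM throughout, and Matn1 was listed at 0 in all libraries.

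Acan, the core protein of the large cartilage proteoglycan, went against the direction of Sox6 in each comparison. It was at 128 ± 6.56 FPKM in P3, 561 ± 56.4 in P9 and 40.2 ± 9.80 in FFSS. Acan rose at passage 9 (log2 fold change 2.12, SE 0.177, adjusted p = 0.000288) and fell under shear stress by 1.68 (SE 0.177, adjusted p = 0.000827). Like Sox11, it was highest in P9 and lowest in FFSS.

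At passage 9 the list had 1 gene higher, Acan, and 5 lower, with a median log2 fold change of -0.98 against -0.0026 over all tested genes, of which 9.83% were called. Without FFSS replicate 1, which enters the estimate of the spread, 1 was higher and 8 lower, with 17.1% of the tested genes called. Fmod, a small proteoglycan of collagen fibres, fell by 4.24 on the log2 scale (adjusted p = 0.000808), with 72.4 ± 61.5 FPKM in P9 against 1121 ± 133 in P3. Col11a1, a collagen of thin cartilage fibrils, fell from 857 ± 55.6 to 233.5 ± 63.7 FPKM (-1.90, adjusted p = 0.000524). Xylt1, the enzyme that starts proteoglycan sugar chains, fell from 6.88 ± 1.66 to 1.28 ± 0.169 FPKM (-1.77, adjusted p = 0.00122). The calls on Cilp2 (-2.54, adjusted p = 0.0393) and Papss2, which makes the sulfate donor for those chains (-0.98, adjusted p = 0.0401), were lost when any of several single libraries was left out, the 3 P3 libraries among them (highest adjusted p 0.140 and 0.144).

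Under shear stress 4 genes of the list were higher and 2 lower, with a median of 0.53 against -0.0109 over all tested genes, of which 21.8% were called. Without FFSS replicate 1, 7 were higher and 2 lower, the 6 calls above among them, with 39.3% of the tested genes called. Col27a1, a fibrillar collagen of cartilage, rose from 1.6 ± 0.386 to 5.28 ± 0.652 FPKM (1.28 on the log2 scale, adjusted p = 0.00174). Matn4, a matrilin that links matrix fibres, rose from 1.45 ± 0.176 to 9.21 ± 4.54 FPKM (1.96, adjusted p = 0.00318). Hapln1, the link protein that ties aggrecan to hyaluronan, rose from 2.23 ± 1.48 to 7.94 ± 1.22 FPKM (1.56, adjusted p = 0.00924). Papss2 was higher (0.88, adjusted p = 0.036) and Col11a1 lower (-0.85, adjusted p = 0.0155), with Col11a1 losing its call without P3 replicate 1 or 2 and Papss2 without each of 6 single libraries (highest adjusted p 0.0617 and 0.119). With FFSS replicate 1 left out the log2 fold changes were -1.47 for Acan, 1.29 for Col27a1, 1.63 for Matn4 and 1.68 for Hapln1, each still called. Between P9 and FFSS, 1 gene of the list was higher in P9 and 11 were lower, with a median of -1.48 and 31.4% of all tested genes called. Of the 11, Hapln1, Ucma and Trpv4 reached 1 FPKM in no P9 library and passed the filter through P3 and FFSS libraries alone. A level of 1 FPKM outside P9 was thus a condition of their being tested, and their differences from P9 are descriptions with no test. Without FFSS replicate 1 the counts were 1 and 13, with 45.8% of all tested genes called.

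**Figure D5:**
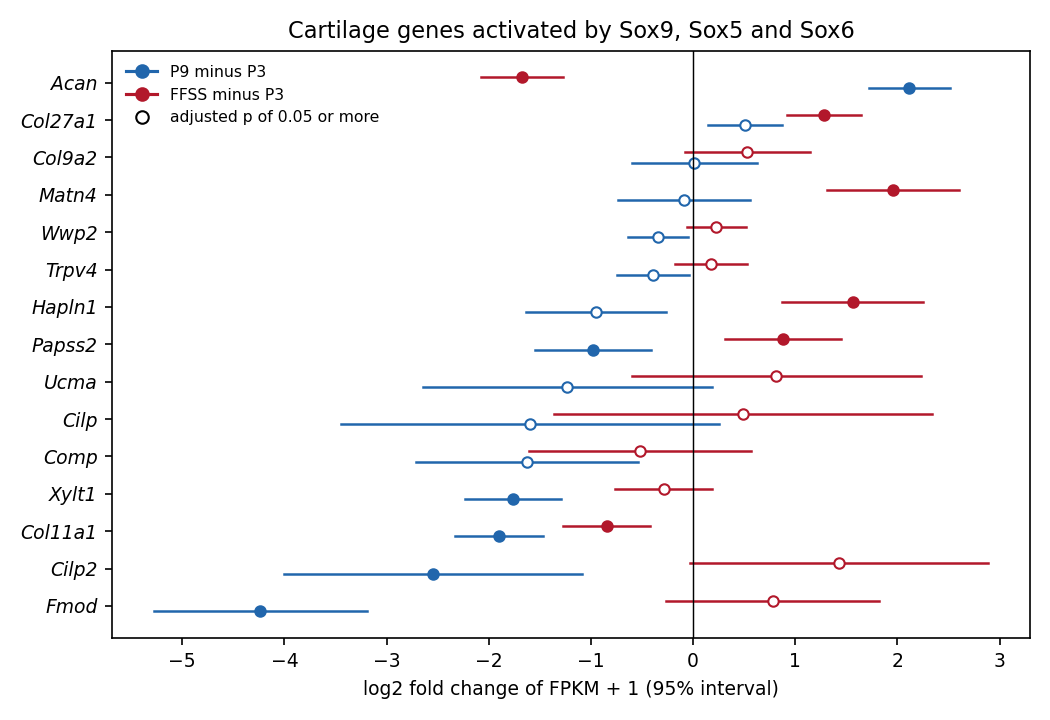
Log2 fold changes of FPKM + 1 with 95% intervals for the 15 tested cartilage genes, P9 and FFSS each against P3; filled points have an adjusted p under 0.05 in limma. Acan lies to the right in P9 and to the left in FFSS, opposite to Hapln1 and Papss2.

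RefSeq promoters (GRCr8) were present for 21 of the 27 cartilage genes. A SOX core lay in the 250 bases before the start of 2 of them, Col9a2 and Wwp2, or 9.52%, against 30.02% of all promoters. The median GC content of these 21 promoters was 58.8%, against 51.2% over all promoters, and its part in the share was not tested. Enhancers were not searched.

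Proteins that work with or against Sox9 formed a list of 23, of which 18 were tested and Ep300 had no row. At passage 9, 1 was higher and 3 lower, with a median of -0.42 and 9.83% of all tested genes called, or 2 higher and 5 lower without FFSS replicate 1. Runx3, a runt-domain factor of cartilage and bone, fell from 7.74 ± 1.29 to 2.22 ± 0.385 FPKM (-1.44 on the log2 scale, adjusted p = 0.00135). Sp7, the osteoblast factor osterix, fell from 16.5 ± 2.0 to 1.18 ± 1.39 FPKM (-3.17, adjusted p = 0.00299). Runx2, the driver of hypertrophy and bone formation, was called lower (-0.61, adjusted p = 0.0293) and Arid5b, a Sox9 cofactor, higher (0.48, adjusted p = 0.0334). Both of these calls were lost without several single libraries, with adjusted p up to 0.114 and 0.145.

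Under shear stress 6 of the 18 were higher and 2 lower, with a median of 0.33 and 21.8% of all tested genes called, and without FFSS replicate 1, 8 were higher and 2 lower. Bhlhe40 and Bhlhe41, helix-loop-helix repressors, rose from 29.4 ± 1.2 to 154 ± 57.1 FPKM (2.28 on the log2 scale, adjusted p = 0.00107) and from 19.5 ± 3.30 to 54.1 ± 8.08 FPKM (1.43, adjusted p = 0.00963). Runx1, the runt-domain factor of early chondrocytes, rose from 19.7 ± 2.40 to 33.5 ± 1.75 FPKM (0.74, adjusted p = 0.00953). Dlx5, a homeobox factor of bone and cartilage, fell from 13.9 ± 1.88 to 7.52 ± 1.28 FPKM (-0.81, adjusted p = 0.00973). Leaving out that library gave 2.59 for Bhlhe40, 1.41 for Bhlhe41, 0.71 for Runx1 and -0.70 for Dlx5, each still called. Between P9 and FFSS, 2 were higher in P9 and 9 lower, with 31.4% of all tested genes called. Without FFSS replicate 1 the counts were 2 and 12, with 45.8% called. Arid5a, the other ARID cofactor of Sox9, was at 1.81 ± 0.315 FPKM in P9 and 11.9 ± 4.98 in FFSS (-2.12, adjusted p = 0.000696; -2.46 without FFSS replicate 1).

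Signals that act on Sox9 in cartilage, secreted or bound to the cell surface, formed a list of 21 with their secreted antagonists. Of these, 15 were tested, and Pthlh had no row. At passage 9, 2 were higher and 3 lower, with a median of -0.66 and 9.83% of all tested genes called, or 3 higher and 4 lower without FFSS replicate 1. Tgfb2, of the TGF-beta family, stood at 137 ± 15.2 FPKM in P9 and 44.9 ± 3.13 in P3 and rose by 1.59 on the log2 scale (adjusted p = 0.00136). Jag1, a Notch ligand, rose from 9.29 ± 1.35 to 46.2 ± 12.6 FPKM (2.17, adjusted p = 0.00559). The BMP antagonists Chrd and Grem1 fell, Chrd from 14.2 ± 2.02 to 3.66 ± 0.665 FPKM (-1.71, adjusted p = 0.0007) and Grem1 from 525 ± 55.8 to 273 ± 38.8 FPKM (-0.94, adjusted p = 0.00309). Under shear stress 2 were higher and 3 lower, with a median of -0.08 and 21.8% of all tested genes called, and without FFSS replicate 1, 3 were higher and 3 lower. Gdf5, the growth factor of joint formation, was at 0.0755 ± 0.0919 FPKM in P3 and 1.68 ± 0.535 in FFSS and was listed at 0 in the P9 libraries. Like Sox5, Gdf5 passed the filter through FFSS alone, and it is 1 of the 2 counted as higher under shear stress and of the 4 counted as lower in P9 than in FFSS. Grem1 fell by 0.64 (adjusted p = 0.0126; 0.0574 at most without P3 replicate 1 or 2). The calls on Wnt5a (0.63, adjusted p = 0.0293) and Chrd (-0.65, adjusted p = 0.0321) were lost without several single libraries, at up to 0.104 and 0.114. With FFSS replicate 1 left out the log2 fold changes were -0.68 for Grem1, 0.57 for Wnt5a and -0.81 for Chrd, each still called. Between P9 and FFSS, 4 were higher in P9 and 4 lower, with 31.4% of all tested genes called. Without FFSS replicate 1 the counts were 5 and 5, with 45.8% called.

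Receptors and intracellular mediators of these signals formed a list of 37, of which 36 were tested. At passage 9, 3 were higher and 7 lower, with a median of -0.12 and 9.83% of all tested genes called, or 7 higher and 8 lower without FFSS replicate 1. Fgfr1, a fibroblast growth factor receptor, fell from 134 ± 11.7 to 19.2 ± 7.34 FPKM (-2.80 on the log2 scale, adjusted p = 0.000276). Pth1r, the receptor of parathyroid hormone-related protein, fell from 7.08 ± 1.01 to 1.97 ± 0.400 FPKM (-1.45, adjusted p = 0.00118). Id3, a direct BMP target, rose from 147.5 ± 33.9 to 344 ± 19.0 FPKM (1.24, adjusted p = 0.00191). The other two counted as higher were Hey1, a Notch target, at 0.765 ± 0.359 FPKM in P3, 3.22 ± 0.189 in P9 and 0.0975 ± 0.169 in FFSS, and the receptor Notch1, at 0.438 ± 0.0815, 1.48 ± 0.380 and 0.280 ± 0.0535. Notch1 passed the filter through P9 alone and Hey1 through P9 and 1 P3 library, so a high P9 level was a condition of their being tested, and their values are descriptions with no test. Hes1, another Notch target, was called higher under shear stress and was not called at passage 9. Without FFSS replicate 1 it was called higher in both, by 3.45 under shear stress (adjusted p = 4.9e-05, limma) and 1.73 at passage 9 (adjusted p = 0.00123).

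Under shear stress 8 of these 36 were higher and 5 lower, with a median of -0.08 and 21.8% of all tested genes called. Without FFSS replicate 1 the counts were 7 and 7, and 11 of the 13 calls were shared. Lef1, a nuclear effector of Wnt signalling, fell from 3.54 ± 0.071 to 0.767 ± 0.292 FPKM (-1.38 on the log2 scale, adjusted p = 0.00133). Hif1a, the oxygen-regulated factor that acts on Sox9 in cartilage, rose from 26.1 ± 1.27 to 58.5 ± 4.78 FPKM (1.13, adjusted p = 0.00165), and Id2 from 33.5 ± 2.39 to 76.5 ± 14.7 FPKM (1.15, adjusted p = 0.006). Rela, a subunit of NF-kB, was called higher (0.42, adjusted p = 0.0123) and lost the call without P3 replicate 1, 2 or 3 or FFSS replicate 3 (highest adjusted p 0.0537). With that library left out the values were -1.49 for Lef1, 1.2 for Hif1a, 1.31 for Id2 and 0.47 for Rela, each still called. Between P9 and FFSS, 8 were higher in P9, Hey1 and Notch1 among them, and 10 lower, with Fgfr1 at -3.32 (adjusted p = 3.2e-05; -3.45 without FFSS replicate 1). The counts without that library were 8 and 13. Of all tested genes, 31.4% were called between P9 and FFSS, and 45.8% without that library.

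The labelled cell type was checked against 8 markers of cultured mesenchymal and cartilage progenitor cells, and all passed the filter. Their summed level was 14753 to 16082 FPKM across P3 libraries, 9832 to 10564 across P9 libraries and 8402 to 11380 across FFSS libraries, led by Col1a1, the collagen of fibrous tissue. Col1a1 was at 9777 ± 504 FPKM in P3, 4805 ± 307 in P9 and 4415 ± 593 in FFSS and was called lower in both. Eng was called lower at passage 9 as well, and under shear stress Pdgfra, Thy1 and Eng, surface proteins of mesenchymal cells, were called higher, with 4 of the 8 higher and 1 lower without FFSS replicate 1. The summed level of 5 mature chondrocyte markers was 1.56 to 1.98 FPKM across P3 libraries, 0.0552 to 1.04 across P9 libraries and 0.332 to 2.25 across FFSS libraries, and none of the 5 passed the filter. Among endothelial markers, the defining genes Cdh5, Emcn and Sox17 were at 0 in every library, and the summed level, led by Kdr and Sox18, was 1.15 to 1.55 FPKM across P3 libraries, 0.512 to 0.545 across P9 libraries and 0.380 to 0.684 across FFSS libraries. Summed glial markers were 0.846 to 2.52 FPKM over all libraries, and the summed neuronal markers, of 5.37 to 26.6 FPKM, were carried by Tubb3 and Map2.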

How the data were processed

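Per the submitters' processing notes, reads were handled with HISAT2 2.0.5 and featureCounts 1.5.0-p3 on build Rnor_6.0, with settings, annotation release and strandedness not given in the sources used here. The authors deposited FPKM per gene and library. The product of value and gene length was a whole multiple of 1 step per library for 100% of values (tolerance 0.01), which gave the fragments behind each value. These FPKM already carry a median-of-ratios scaling of the libraries.

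For genes that reached 1 FPKM in 3 or more libraries, log2(FPKM + 1) was modelled over all 9 libraries in limma 3.58.1 under R 4.3.3, by empirical Bayes with a trend (6 residual and 2.93 prior degrees of freedom). Tests were two-sided, with Benjamini-Hochberg adjustment over 13059 genes and a threshold of 0.05. Tables and plots used Python 3.11.15, NumPy 2.4.6, pandas 2.3.3, SciPy 1.17.1 and matplotlib 3.10.9.

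The factors and gene lists were chosen with earlier results of these data known. Named were all Sox genes, Col2a1, Acan, up to 4 members of each list per comparison with the smallest adjusted p, and the 3 genes most like each factor by Pearson r. Further genes were named after their values were seen. Alternatives were a pseudocount of 0.1, no filter, a filter of 5 FPKM, scaling by library totals, a replicate block, fitting only the groups compared, voom on recovered fragments, and leaving out each library. List counts and list genes without FFSS replicate 1 were added after seeing the data.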

Additional observations from a re-analysis of the deposited data

Results flagged for a closer look

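The difference between passage 9 and shear stress passed the test for 4 Sox genes, each given as the log2 difference P9 minus FFSS with its adjusted p from limma. It was -2.12 for Sox6 (adjusted p = 5.0e-05), -0.88 for Sox9 (adjusted p = 0.00918), 3.08 for Sox11 (adjusted p = 4.3e-05) and 1.73 for Sox12 (adjusted p = 0.036). P9 and FFSS libraries did not overlap for Sox6, Sox9 and Sox11 and overlapped for Sox12. Of all tested genes, 31.4% were called in this comparison and 42.2% did not overlap. Sox5 is left out because it passed the expression filter through its FFSS libraries alone.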

How the results depend on the processing

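The calls on Sox9 (FFSS against P3), Sox11 (both models against P3), Sox6 (P9 against P3) and Sox6, Sox9 and Sox11 between P9 and FFSS kept direction and threshold under each of the 16 alternatives run for them. A filter of 5 FPKM left Sox5 and Sox13 untested. Libraries with the same replicate number did not deviate together (r from -0.0408 to 0.0331), so the numbers were not taken as pairs. With a replicate block Sox6 in FFSS against P3 had an adjusted p of 0.0598, Sox12 had 0.0625, and Sox12 between P9 and FFSS had 0.0541; the block ended no other call on a Sox gene. It gave 550 genes higher and 432 lower at passage 9, and 1204 and 1061 under shear stress. Sox12 at passage 9 ranged from -0.27 to 0.30 when single libraries were left out, turning to 0.0041 without P3 replicate 1 and 0.30 without P9 replicate 1. With a pseudocount of 0.1 the Sox9 to Sox6 ratio was 2.54 (P9 minus P3) and 1.75 (P9 minus FFSS), and the Sox9 to Sox5 ratio was 1.75, 2.37 and, for FFSS minus P3, -0.62. The last reversed from 0.16, and leaving out single libraries gave it -0.036 to 0.41, below 0 without P3 replicate 3 (-0.036) or FFSS replicate 1 (-0.031).

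Over all tested genes, 704 were higher and 580 lower at passage 9, 1483 and 1362 under shear stress, and 2103 and 1997 in P9 against FFSS. Fitting only the groups compared gave 1375 higher and 1113 lower at passage 9, and 1233 and 1258 in P9 against FFSS. Leaving out single libraries gave 354 to 1225 higher and 260 to 1005 lower at passage 9, 657 to 2588 and 525 to 2543 under shear stress, and 1395 to 3053 and 1272 to 2933 in P9 against FFSS. The highest of these counts came without FFSS replicate 1. At least 1 count was over 1.5 times smaller at passage 9 without each P3 library in turn and without P9 replicates 1 or 2, under shear stress without each P3 library in turn and without FFSS replicate 3, and without FFSS replicate 3 in P9 against FFSS. The cause was not tested. Depth limits Sox5 in P9 and Sox11 in FFSS, each with libraries of 10 fragments or fewer.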
